A study of Mus musculus with 5 samples.

Results

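The EGF receptor ligands and the ERBB receptors were followed in stem cells of the mouse hair follicle. The genes were taken by symbol from the deposited table and number 10 of its 55357 genes: the ligand genes Areg, Ereg, Btc, Hbegf, Tgfa, Epgn and Egf and the receptor genes Egfr, Erbb2 and Erbb3. Each had enough reads in at least 2 libraries to be tested.

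Control mice (2 libraries) were Ring1a-/- with Ring1b flox/flox alleles, and PRC1 i2KO mice (3 libraries) were of that genotype and also carried K15-CrePR1, a Cre that a keratin 15 promoter drives and RU-486 activates. Both groups therefore lacked Ring1a, topical RU-486 at 1% was given to both once a day over 10 days starting at postnatal day 50, and skin was taken 15 days after the last treatment, at about postnatal day 75. Ring1a and Ring1b are the catalytic subunits of Polycomb repressive complex 1 (PRC1), so the comparison asks what changes when Ring1b is targeted where Ring1a is already absent. The sort gate took cells with CD34, EpCAM and high α6-integrin and without Sca1, and 50000 of them gave the RNA of a library. The 2 Control libraries are called replicates 1 and 3 after their titles; the labels do not say whether each library had its own animals, so p-values rest on a spread that may be only technical. Because RNA was pooled from sorted cells, fewer cells of a type and less RNA per cell cannot be told apart.

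Ligands of the EGF family are made as membrane-anchored precursors that ADAM proteases cut to release the active growth factor. Amphiregulin, TGF-alpha, epigen and EGF bind EGFR, while HB-EGF, betacellulin and epiregulin bind EGFR and ERBB4; ERBB2 has no known soluble ligand of its own and ERBB3, a receptor for neuregulins, has little kinase activity, so both signal in pairs with other family members. In skin, EGFR signalling supports proliferation of basal keratinocytes and is needed for normal hair follicle cycling.

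Most ligand transcripts rose after PRC1 targeting, and that of their main receptor did not pass the test. Of 7 ligand genes, Areg, Ereg, Btc, Hbegf and Tgfa rose, Epgn was higher in each PRC1 i2KO library but did not pass the test, and Egf did not pass. Of the receptors, Erbb2 and Erbb3 rose about 2-fold (1.86-fold and 2.16-fold), and Egfr did not pass. In all, 7 of the 10 genes rose and 0 fell (edgeR quasi-likelihood test, Benjamini-Hochberg adjusted p under 0.05 over 15665 genes; 1 of the 10, Egfr, had an unadjusted p under 0.05 and lower values, and DESeq2 called 8 higher and 0 lower, against 17.6% and 13% of its genes), against 18.8% of tested genes higher and 15.1% lower. The median log2 fold change of the 10 genes was 1.35, and that of all tested genes -0.01. The 10 genes were chosen with earlier results of these data known, so the contrast is a description. No PRC1 i2KO library overlapped the controls in 9 of the 10 genes, 8 of them with the PRC1 i2KO libraries above the controls, where 30% of tested genes lay wholly above and 29.4% wholly below. Without Control replicate 1, Control replicate 3 or PRC1 i2KO replicate 1, 2 or 3, the genes called higher numbered 7, 6, 6, 5 and 7, against 14.1%, 12.3%, 15.6%, 14.8% and 20.9% of tested genes. On unfiltered TPM 4 of them were called higher, against 6.07% of genes, and with no filter on low counts 1, Egfr, was called lower, against 11.7%.

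**Figure D1:**
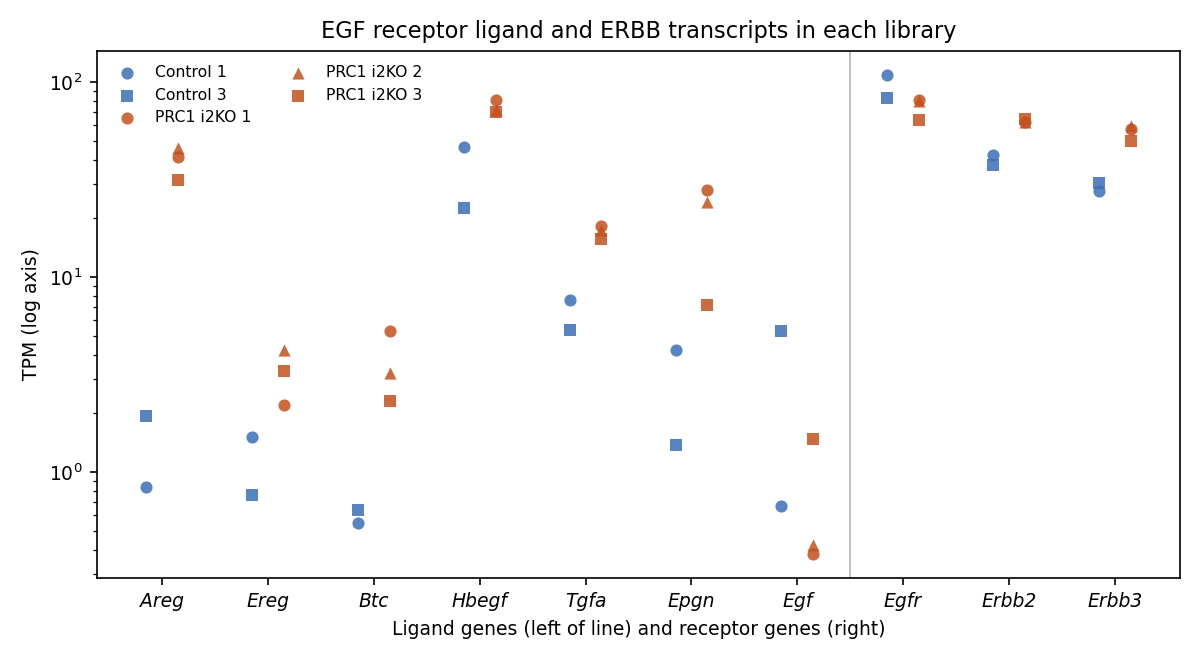
TPM (a level per transcript length, log axis) of each ligand gene and, right of the line, each receptor gene in the 2 Control (blue) and 3 PRC1 i2KO (orange) libraries, 1 point per library. Areg goes from 0.84 and 1.93 TPM in the controls to between 31.49 and 45.83 TPM, whereas Egfr is slightly lower in PRC1 i2KO.

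Areg, Ereg, Epgn and Btc adjoin each other on mouse chromosome 5, with no other protein-coding gene between them in the supplied RefSeq annotation. Because these neighbouring genes shared a direction, the 250 bases before the annotated start of those with a sequence in the supplied RefSeq promoter table are shown, 5′ to 3′ on the gene's strand. They come from build GRCm38.p6, not from the mm39 build of the counts. Capitals mark matches, on either strand, to any of 4 motifs searched: TATAAA (the TATA box), TGACGTCA (the cyclic AMP response element), TGANTCA (the AP-1 element) and GGGCGG (the GC box). The Areg sequence is chr5:91139349-91139598 on the + strand, that of Epgn chr5:91027267-91027516 on the + strand and that of Btc chr5:91402995-91403244 on the - strand.
Areg: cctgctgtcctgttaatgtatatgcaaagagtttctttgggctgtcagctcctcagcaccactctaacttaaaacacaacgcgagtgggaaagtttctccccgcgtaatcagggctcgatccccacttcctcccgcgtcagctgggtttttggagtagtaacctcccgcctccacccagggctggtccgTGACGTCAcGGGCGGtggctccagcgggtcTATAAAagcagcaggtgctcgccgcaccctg
Epgn: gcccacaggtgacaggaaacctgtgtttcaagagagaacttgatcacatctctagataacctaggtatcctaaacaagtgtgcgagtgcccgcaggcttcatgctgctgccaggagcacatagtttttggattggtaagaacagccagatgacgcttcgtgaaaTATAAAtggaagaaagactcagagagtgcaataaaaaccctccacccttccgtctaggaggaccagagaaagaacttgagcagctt
Btc: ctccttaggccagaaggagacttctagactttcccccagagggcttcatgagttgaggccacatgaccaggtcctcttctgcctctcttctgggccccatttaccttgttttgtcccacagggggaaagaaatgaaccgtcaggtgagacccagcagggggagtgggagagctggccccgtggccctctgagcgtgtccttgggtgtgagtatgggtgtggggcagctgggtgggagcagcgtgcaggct
The Areg sequence held TATAAA from 31 to 26 bases before the start, TGACGTCA from 61 to 54 and GGGCGG from 52 to 47, with no overlap among them. That of Epgn held TATAAA from 86 to 81 bases before the start, and that of Btc held none of the 4 motifs. Among 32851 promoter sequences of this length, 12.4% held TATAAA, 1.55% TGACGTCA, 6.75% TGANTCA and 32.7% GGGCGG. CpG dinucleotides numbered 15 in Areg, 5 in Epgn and 4 in Btc, with a median of 6 over these sequences. The promoters of Tgfa, Erbb2 and Egfr held 19, 16 and 11, and those listed for Egf held 0 and 15. Promoter sequences were kept for 7 of the 10 genes, not for Ereg, Hbegf or Erbb3. Any promoter of Hbegf was left out by its chromosome, so whether it had a match is not shown.

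Areg, which encodes amphiregulin, changed most of the 10 genes. It stood at 0.49 and 1.12 CPM (counts scaled to library size by TMM) in Control replicates 1 and 3, from 4 and 36 reads, and reached 27.5, 30.0 and 20.1 CPM in replicates 1, 2 and 3 of PRC1 i2KO. Control replicate 1 lay below the floor of 0.536 CPM used as the filter in at least 2 libraries. Areg was thus tested only because of its PRC1 i2KO reads, which favoured a rise. The groups lay far apart, and the call was made with each of the 15 other settings tried. The log2 fold change was 4.78 (SE 0.35, edgeR adjusted p = 1e-05), that is 27.5-fold; the size depends on the few control reads, since without Control replicate 3 it was 5.69. The 2 tested genes whose pattern over the 5 libraries was most like that of Areg were Clmp and Igf2bp2, at a root mean square difference of 0.15 and 0.18 in centred log2 CPM; 59 of 12357 genes compared lay within 0.5.

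Btc, which encodes betacellulin, was at 0.86 and 1.0 CPM in Control and at 6.43, 5.64 and 3.95 CPM in PRC1 i2KO. It rose 5.59-fold (log2 fold change 2.48, SE 0.45, edgeR adjusted p = 0.00237), and its groups did not overlap. Ereg, which encodes epiregulin, was at 3.45 and 1.74 CPM in Control and at 5.8, 11.0 and 8.21 CPM in PRC1 i2KO. Its rise of 3.42-fold (log2 fold change 1.77, SE 0.43, edgeR adjusted p = 0.0103) was larger than the spread between replicates. That call was lost when Control replicate 3 (log2 fold change 1.28, edgeR adjusted p = 0.0993) or PRC1 i2KO replicate 2 was left out (1.51, edgeR adjusted p = 0.0554), and on TPM, as given in the closing section.

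Epgn, which encodes epigen, was at 3.82 and 1.24 CPM in Control and at 28.2, 24.5 and 6.48 CPM in PRC1 i2KO. PRC1 i2KO replicate 3 stood apart, close to the higher control, and the log2 fold change of 3.15 had a 95% interval from 0.78 to 5.53 (SE 0.92, edgeR adjusted p = 0.055). Without that library it was called (3.64, edgeR adjusted p = 0.000848), as it was by DESeq2 (adjusted p = 0.00672); without Control replicate 3 the log2 fold change was 2.35 and without Control replicate 1 it was 3.97, and neither was called. PRC1 i2KO replicate 3 was the lowest of its group in 8 of the 10 genes, and in 34.9% of all tested genes.

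**Figure D2:**
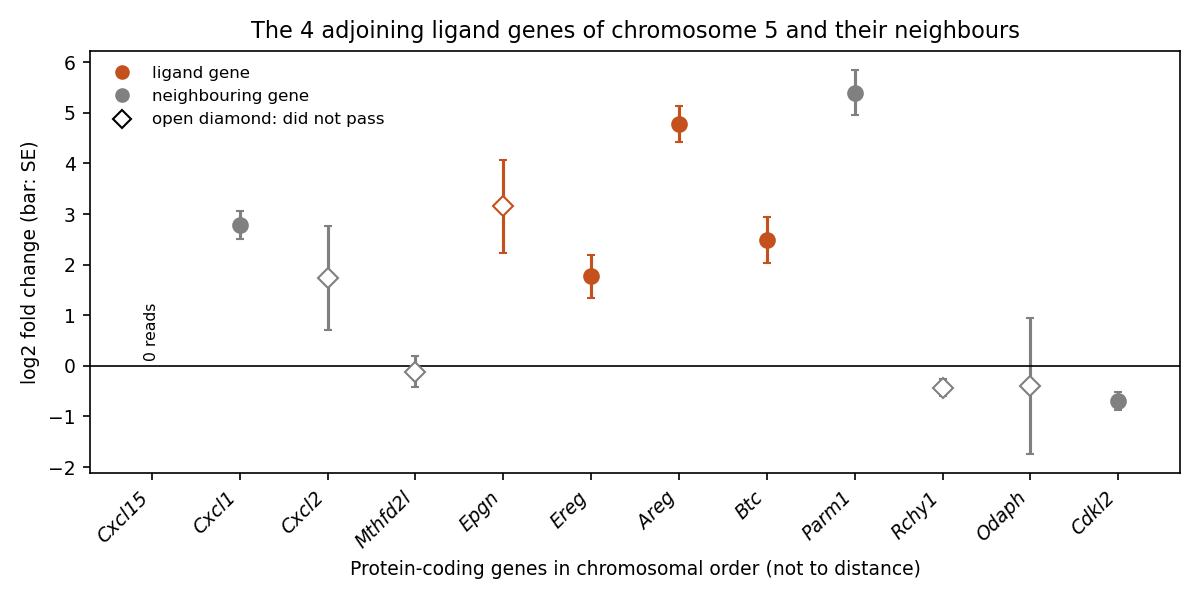
Log2 fold change (bar: SE) along 12 protein-coding genes in their order on chromosome 5, the 4 ligand genes in orange and 4 neighbours on each side in grey. Open diamonds did not pass the test, and Cxcl15, with 0 reads, has no point. Of the genes drawn, Parm1 (5.40), which lies beyond Btc, and Areg (4.78) have the largest fold changes, while Btc between them is at 2.48 and Mthfd2l on the other side stands near 0.

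Genes on either side of the 4 ligand genes were read as well, a choice made after the values of the ligands were seen. Parm1, the next protein-coding gene beyond Btc, had 4 and 12 reads in Control and 195, 443 and 215 in PRC1 i2KO. Both controls lay below the floor of 0.536 CPM used as the filter, so Parm1 was tested only because of its PRC1 i2KO reads and a rise was the only direction open to it. The fitted value, 5.40 on the log2 scale (SE 0.45, edgeR adjusted p = 2.01e-05), depends on those few control reads; on log2(TPM + 1), a scale that understates low genes, its value was 2.45 and it was still called. Beyond it, Rchy1 and Odaph did not pass (log2 fold changes -0.43 and -0.40) and Cdkl2 fell by 0.70 on the log2 scale (SE 0.18, edgeR adjusted p = 0.0128), a call lost without Control replicate 3 (-0.45, edgeR adjusted p = 0.178) or PRC1 i2KO replicate 2 (-0.65, edgeR adjusted p = 0.0546). On the other side Mthfd2l did not pass (log2 fold change -0.11, and 0.03 without Control replicate 1). Next to it, Cxcl2 did not pass (1.74, SE 1.03), the chemokine gene Cxcl1 rose from 5.78 to 37.9 CPM (2.79, SE 0.28, edgeR adjusted p = 9.34e-05), and Cxcl15 had 0 reads.

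Hbegf and Tgfa were the ligand transcripts with the highest mean level per length in Control, and both rose. Hbegf, which encodes the heparin-binding ligand, was at 54.9 and 28.9 CPM in Control and at 96.0, 84.8 and 81.2 CPM in PRC1 i2KO. The controls differed from each other more than the PRC1 i2KO libraries did. Its rise of 2.13-fold (log2 fold change 1.09, SE 0.27, edgeR adjusted p = 0.0252) was not called without PRC1 i2KO replicate 1 (1.03, edgeR adjusted p = 0.0524), replicate 2 (1.11, edgeR adjusted p = 0.0576) or replicate 3 (1.15, edgeR adjusted p = 0.109). The size depended on the control used, with log2 fold changes of 0.67 and 1.59 when 1 control was left out. Tgfa, which encodes TGF-alpha, was at 19.3 and 13.1 CPM in Control and at 52.5, 48.5 and 41.7 CPM in PRC1 i2KO. Its rise of 2.99-fold (log2 fold change 1.58, SE 0.20, edgeR adjusted p = 0.000235) was called with each of the 15 other settings, between 1.28 and 1.85 on the log2 scale.

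Egf was the lowest ligand transcript in PRC1 i2KO per length. It was at 1.23 and 2.27 CPM in Control and at 0.73, 0.89 and 1.42 CPM in PRC1 i2KO, with overlapping groups (log2 fold change -0.80, 95% interval from -2.27 to 0.67, edgeR adjusted p = 0.388). At this depth, with 7 to 73 reads a library, a change of this size could not be told from none. Its TPM per CPM differed between libraries from 0.47 to 2.33, against 0.24 to 0.27 for Egfr, so that its 5.3 TPM in Control replicate 3 goes with only 2.27 CPM.

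**Figure D3:**
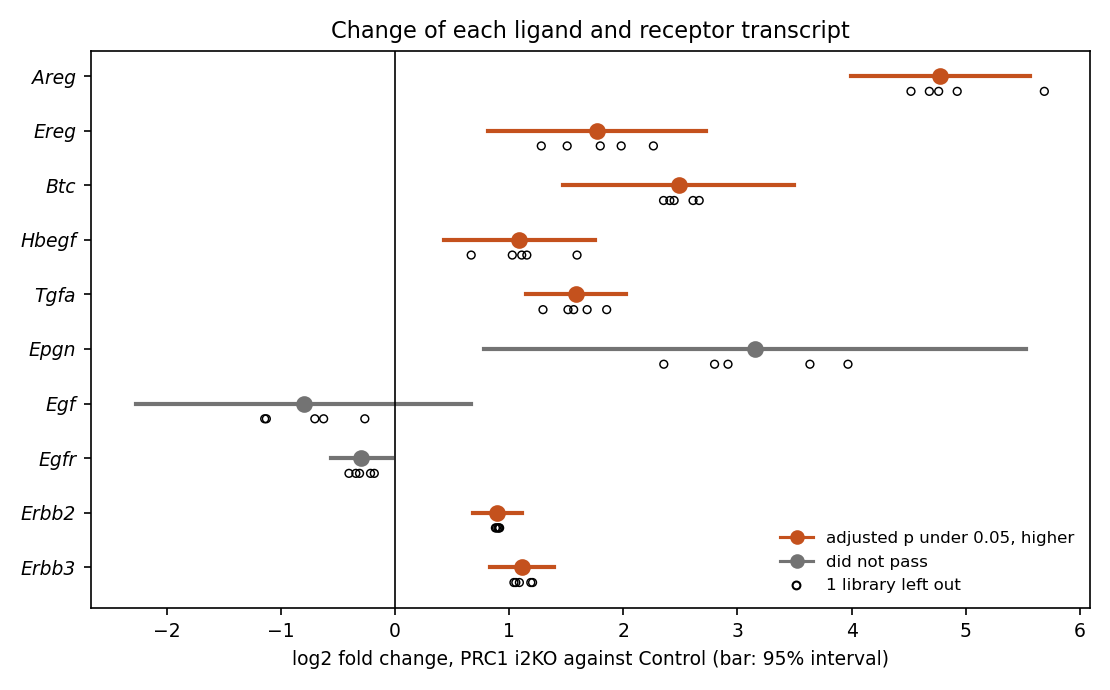
Log2 fold change of PRC1 i2KO against Control for each ligand and receptor gene, with the 95% interval as a bar and, below it, open circles for the 5 analyses that left out 1 library. Intervals of Areg and Epgn do not reach 0 but that of Epgn is the widest, from 0.78 to 5.53, and the interval of Egf spans 0.

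Egfr, the receptor that the ligands of this set share, was at 399 and 342 CPM in Control and at 313, 323 and 269 CPM in PRC1 i2KO. Each PRC1 i2KO library lay below both controls, but the log2 fold change of -0.30 (SE 0.12, 95% interval from -0.56 to -0.03, unadjusted p = 0.0326) did not pass after adjustment (edgeR adjusted p = 0.0831). Without Control replicate 1 it was -0.18.

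Erbb2 and Erbb3 were the steadiest of the rises. Erbb2 was at 103.6 and 101.5 CPM in Control and at 195.9, 190.3 and 186.3 CPM in PRC1 i2KO (log2 fold change 0.90, SE 0.10, edgeR adjusted p = 0.000107). Erbb3 was at 93.2 and 103.2 CPM in Control and at 223.2, 229.5 and 185.4 CPM in PRC1 i2KO (log2 fold change 1.11, SE 0.12, edgeR adjusted p = 0.000129). In both genes the spread within a group was small beside the difference, and both were called with each of the 15 other settings. Erbb2 overlaps the coding gene Mien1 and Egfr the noncoding gene Egfros in the supplied annotation; strand use in counting is not given in the sources used here, so reads where they overlap are uncertain.

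Per length, the order of the transcripts changed between the groups. In Control, Egfr led at 95.7 ± 18.7 TPM (SD, n = 2), followed by Erbb2 (39.9 ± 3.13 TPM), Hbegf (34.4 ± 16.9 TPM) and Erbb3 (28.9 ± 2.11 TPM), of which Hbegf overlapped both its neighbours. Tgfa followed at 6.51 ± 1.63 TPM, clear of Erbb3 above and of Egf below. Egf, Epgn, Areg and Ereg, with means from 1.13 to 2.98 TPM, overlapped in that order, and Btc was lowest at 0.59 ± 0.06 TPM, clear of Ereg. In PRC1 i2KO, Egfr (74.5 ± 9.61 TPM, SD, n = 3) and Hbegf (74.4 ± 5.89 TPM) overlapped at the top. Erbb2 followed at 63.2 ± 1.44 TPM, clear of Hbegf but not of Egfr. The lowest Egfr value was 63.47 TPM and the highest of Erbb2 64.9 TPM. Then came Erbb3 at 55.6 ± 5.03 TPM and Areg, rank 8 in Control and rank 5 here, at 39.6 ± 7.34 TPM. Epgn (19.7 ± 11.0 TPM) and Tgfa (17.0 ± 1.32 TPM) overlapped, as did Btc (3.61 ± 1.54 TPM) and Ereg (3.24 ± 1.01 TPM), and Egf was last at 0.76 ± 0.62 TPM.

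**Figure D4:**
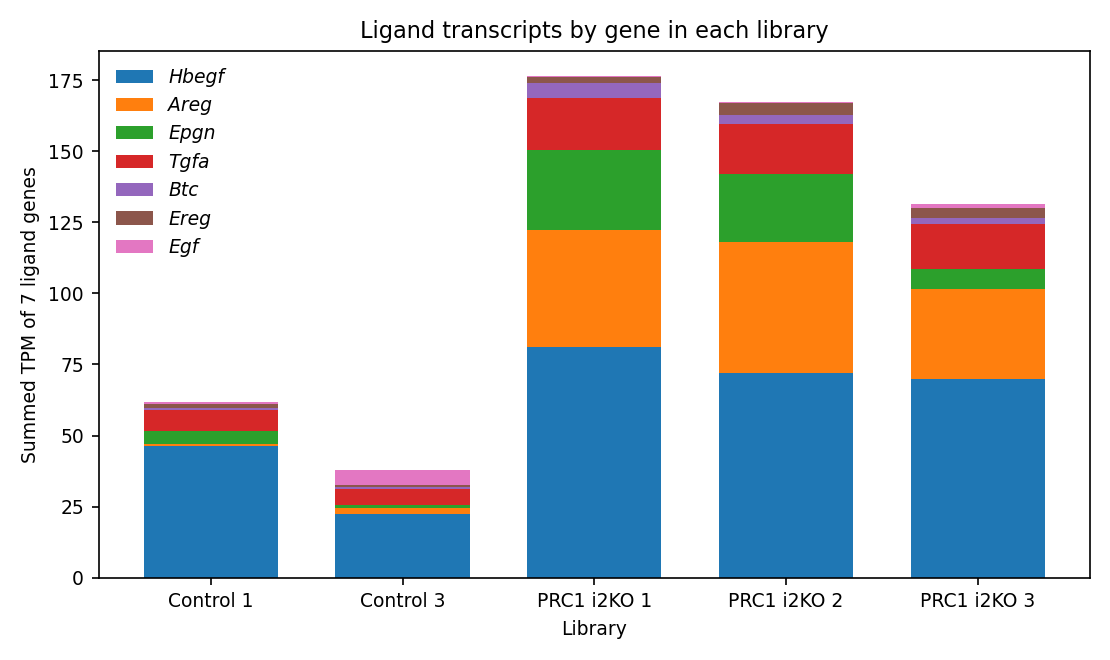
Stacked bars of the TPM of the 7 ligand genes in each library, coloured by gene. The sum is 61.8 and 37.8 TPM in Control and 176.5, 167.2 and 131.3 TPM in PRC1 i2KO, and Areg (orange) is barely seen in the controls.

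Summed over the 7 ligand genes, the level was 61.8 and 37.8 TPM in Control and 176.5, 167.2 and 131.3 TPM in PRC1 i2KO, a ratio of means of 3.18. Hbegf made up 75% and 59.4% of ligand TPM in Control, against 45.9%, 43.1% and 53.3% with PRC1 targeted. Areg went from 1.36% and 5.1% to 23.4%, 27.4% and 24.0%. Without Hbegf, the sum was 15.5 and 15.4 TPM in Control and 95.4, 95.1 and 61.4 TPM in PRC1 i2KO. The 3 receptors together went from 178.5 and 150.6 TPM to 200.5, 201.4 and 178.4 TPM, ranges that overlap narrowly, with a ratio of means of 1.18. Within that sum Egfr went from 61.0% and 54.8% to 40.3%, 39.4% and 35.6%.

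Of the other genes of the family, the neuregulin genes went in different directions. Nrg4 rose 4.30-fold, from 2.71 and 2.43 CPM to 12.0, 10.6 and 10.3 CPM (log2 fold change 2.10, SE 0.29, edgeR adjusted p = 0.000487). Nrg2 fell by 1.41 on the log2 scale (SE 0.38, edgeR adjusted p = 0.0177), from 8.25 and 8.52 CPM to 1.87, 4.47 and 2.95 CPM, a call lost without Control replicate 1 (-1.43, edgeR adjusted p = 0.0539) or Control replicate 3 (-1.39, edgeR adjusted p = 0.0934). Nrg1 and the receptor gene Erbb4 stayed between 0 and 1.37 CPM in each library, with overlapping groups, and Nrg3 had 0 reads, as did a second table entry named Nrg1.

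**Figure D5:**
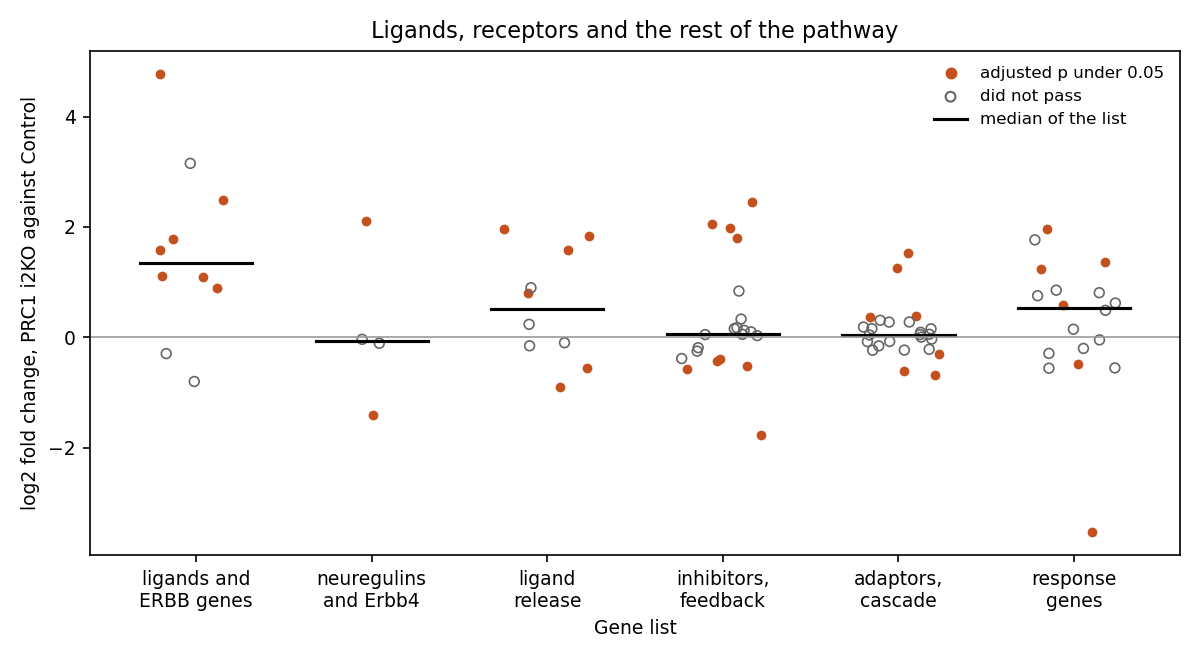
Log2 fold change of each tested gene, PRC1 i2KO against Control, for the ligand and ERBB genes and for 5 lists of related genes; filled points passed the test and the bar is the median of the list. The ligand and ERBB genes have a median of 1.35, whereas the medians of the inhibitor and cascade lists are 0.05. Genes and lists were chosen with earlier results of these data known.

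The rest of the pathway was read from 4 lists, of which 74 genes were tested. Of these 16 were called higher and 12 lower, 46 did not pass, and the lists together had a median log2 fold change of 0.09. Beside the 18.8% higher and 15.1% lower among all tested genes, these counts are near the background and are not a result about the pathway, and the list counts below are given as descriptions. Among genes that release ligands 4 were called higher and 2 lower of 10, against the same 18.8% and 15.1%. Without Control replicate 1, Control replicate 3 or PRC1 i2KO replicate 2, 1 was called lower, where 9.74%, 8.51% and 10.9% of all tested genes were. Rhbdf2, which encodes iRhom2, a partner of the sheddase ADAM17, rose 3.90-fold from 38.5 and 36.9 CPM to 161, 151 and 129 CPM (edgeR adjusted p = 5.37e-06). Adam10, itself a sheddase, rose 1.74-fold and the rhomboid protease gene Rhbdl2 rose 3.55-fold, while Adam9 fell by 0.55 on the log2 scale. Adam17 did not pass, at 68.3 and 69.4 CPM in Control and 62.5, 66.9 and 63.6 CPM in PRC1 i2KO.

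Of 21 inhibitors and feedback genes of the receptors, 4 were called higher, 5 lower and 12 did not pass, where 18.8% and 15.1% of all tested genes were called. Without Control replicate 3 or PRC1 i2KO replicate 1, 3 were called lower, where 8.51% and 11.1% of all tested genes were. Lrig1, which encodes a transmembrane inhibitor of ERBB receptors, rose 3.97-fold from 133 and 138 CPM to 580, 587 and 444 CPM (log2 fold change 1.99, SE 0.14, edgeR adjusted p = 9.45e-06). Dusp4, a MAP kinase phosphatase, rose 5.49-fold and Spry4, a Sprouty inhibitor of receptor signalling, rose 4.17-fold, while Spred3, of the related Spred family, fell by 1.76 on the log2 scale. Errfi1, which encodes the EGFR inhibitor MIG6, had overlapping groups, with 345.7 and 109.8 CPM in the Control libraries against 269.5, 280.3 and 144.5 CPM in those of PRC1 i2KO.

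Adaptors and kinases of the cascade numbered 25, of which 4 rose, 3 fell and the other 18 did not pass, near the 18.8% and 15.1% of all tested genes. Without Control replicate 3, 1 rose, and without PRC1 i2KO replicate 2, 2 rose, where 12.3% and 14.8% of all tested genes were called higher. Ksr1, a scaffold of the MAP kinase cascade, rose 2.90-fold from 13.8 and 15.7 CPM to 45.2, 45.3 and 38.8 CPM. Gab2, an adaptor, rose 2.38-fold, a call lost without Control replicate 3 (edgeR adjusted p = 0.18) or PRC1 i2KO replicate 1 (edgeR adjusted p = 0.0636). Pik3cb and Braf, which encode a PI3 kinase subunit and a RAF kinase, fell by 0.69 and 0.62 on the log2 scale.

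Genes known to respond to growth factor signalling numbered 18, of which 4 rose and 2 fell, also near the 18.8% and 15.1% of all tested genes. The counts were 9 up and 1 down without Control replicate 1, where 14.1% and 9.74% of all tested genes were called, and 2 up and 3 down without Control replicate 3, where 12.3% and 8.51% were. Without PRC1 i2KO replicate 2 or replicate 3, 2 rose, where 14.8% and 20.9% of all tested genes were called higher. Without PRC1 i2KO replicate 1 or replicate 2, 1 fell, where 11.1% and 10.9% of all tested genes were called lower. Etv4 and Phlda1 rose 3.91-fold and 2.37-fold. Ptgs2, which encodes cyclooxygenase 2, went from 139 and 66.3 CPM to 9.85, 7.38 and 9.26 CPM (log2 fold change -3.54, SE 0.34, and -2.92 without Control replicate 1; edgeR adjusted p = 0.000668). Ier2 rose by 0.58 on the log2 scale, at the threshold (edgeR adjusted p = 0.0458), a call lost without Control replicate 3 (0.31, edgeR adjusted p = 0.224) and without any 1 of the PRC1 i2KO libraries (edgeR adjusted p = 0.119, 0.127 and 0.0591 for replicates 1, 2 and 3). The classical early genes Fos and Egr1 had overlapping groups, at 7738 and 4725 CPM and at 7091 and 4560 CPM in the controls. Control replicate 1 exceeded Control replicate 3 in both, and in every other gene of this list except Etv5 and Plaur. Egr3 stood at 160.1 and 28.4 CPM in these controls. It did not pass, though each PRC1 i2KO library lay above both. Control replicate 1 was also the higher control in 6 of the 10 ligand and receptor genes (Hbegf, Ereg, Epgn, Tgfa, Egfr and Erbb2) and in 47.8% of all tested genes.

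Some traits of the libraries as a whole moved with these results. Libraries held from 8270419 reads (Control replicate 1) to 32463173 (Control replicate 3), so depth differed most between the controls. The markers below were chosen after their values were seen. Their counts stand beside 18.8% of all tested genes called higher and 15.1% called lower. Of 8 bulge markers 6 fell, with a summed level of 16380 to 18430 TPM in Control and 4212 to 6296 TPM in PRC1 i2KO, and Cd34, part of the sort gate, went from 1548 and 1697 CPM to 11.0, 12.3 and 37.2 CPM (edgeR adjusted p = 0.00653, and 0.0567 and 0.0528 without Control replicate 1 or 3); the sorted cells labelled hair follicle stem cells thus had little Cd34 transcript in PRC1 i2KO. All 5 upper follicle, 6 sebaceous, 7 suprabasal and 5 cycling markers rose, the upper follicle sum from 257.6 to 320.0 TPM in Control to 11680 to 12860 TPM. Among markers of cells outside the follicle epithelium, 2 of 6 tested myeloid genes rose (sum 50.8 to 64.5 TPM in Control, 125.6 to 174.9 TPM in PRC1 i2KO; Lyz2 at 0 reads). The risers were the antigen presentation genes Cd74 and H2-Aa, while Ptprc and Cd207 did not pass. Of 6 tested melanocyte genes 3 rose and Mitf fell (sum 78.2 to 87.4 TPM in Control, 44.8 to 49.1 TPM in PRC1 i2KO; Tyr at 0 reads in Control). In Control, Mitf made up most of that sum, at 80.37 and 72.24 TPM, against 16.3 to 16.78 TPM in PRC1 i2KO, and without it the other 7 markers went the opposite way, from 6.01 to 7.0 TPM in Control to 28.5 to 32.4 TPM in PRC1 i2KO. Among them Dct went from 1.6 and 1.99 CPM to 17.4, 17.0 and 12.9 CPM; Erbb3 is also known from melanocytes. T cell markers summed to at most 1.36 TPM in any library, with Cd3d at 0 reads, and endothelial markers to at most 3.28 TPM. Fibroblast markers summed to 26.6 to 37.6 TPM in Control and 11.3 to 14.8 TPM in PRC1 i2KO (1 rose and 3 fell of 4 tested), and 0 of 4 Schwann cell markers passed. Of the markers that rose, Mc5r, Pparg, Sox10, Kit and Dcn had at least 1 control below the filter floor of 0.536 CPM. They were tested only because of their PRC1 i2KO reads, which favoured a rise. The part of these marker differences in the ligand and receptor results was not tested.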

How the data were processed

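RNA-seq of 2 Control and 3 PRC1 i2KO libraries was read from 1 table. Per the file headers, the authors deposited counts and TPM, which is scaled to gene length and keeps no depth. The deposited counts were taken to be expected counts, since 9.06% of genes have a fractional value (none of them the 10 genes followed). Tools listed, without roles, in the submitters' processing notes are RSEM 1.3.3, STAR 2.7.9a and DESeq2 1.38.2, with build mm39; strand use and annotation were not given in the sources used here. All lists and the genes followed were chosen with earlier results of these data known.

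Counts were rounded, filtered with filterByExpr (a floor of 0.536 CPM in at least 2 libraries; 15665 genes), scaled by TMM and fitted in edgeR 4.0.16 under R 4.3.3 (robust quasi-likelihood fit on 5 libraries, genotype only). Benjamini-Hochberg adjustment covered all tested genes, and the SE is the log2 fold change divided by the square root of F. Of Areg, 1 control lay below the floor. The genes followed, and up to 4 called genes of each other list by smallest adjusted p, are named. Markers, neighbours of the chromosome 5 genes and genes given for their levels (Adam17, Errfi1, Fos, Egr1, Egr3, Etv5, Plaur) were chosen after their values were seen. Alternatives were DESeq2 1.42.0, limma 3.58.1 on TPM, other scalings and filters, a replicate block and leaving out each library. On simulated data the fit recovered 29.9% of planted 1.5-fold, 53.7% of 2-fold and 74.2% of 4-fold changes. Far fewer genes changed there, with 106 calls against 5310 here, so the adjusted threshold was stricter. These rates therefore do not measure recovery in the real libraries. A gene that did not pass may still have changed. Library pairs of a group differed beyond sampling noise (10.3 to 42.6 chi-square units for each degree of freedom), so none were merged. Nrdc was not analysed here.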

Additional observations from a re-analysis of the deposited data

How the results depend on the processing

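For the 10 genes, 130 of 149 values under the 15 other settings kept direction and call, 10 lost the call, 9 gained it and 0 changed sign; under the filter of at least 5 CPM in at least 2 libraries Egf had no value. The calls of Areg, Tgfa, Erbb2 and Erbb3 held in each setting. On limma with log2(TPM + 1), log2(TPM + 0.1) and unfiltered TPM, Ereg was not called (adjusted p = 0.0809, 0.086 and 0.153, within a range from 7.9e-05 to 0.153 over its settings); unfiltered TPM also lost Btc (adjusted p = 0.0605) and Hbegf (adjusted p = 0.0589), leaving 4 genes higher and 2996 genes called in all in place of 5310. The adjusted p of Epgn ran from 0.000203 to 0.265 and that of Hbegf from 4.81e-12 to 0.109. Without a filter on low counts, 1 gene was called lower, Egfr (edgeR adjusted p = 0.0358). Leaving out 1 library gave 3322 to 5856 calls in all (the fewest without Control replicate 3), and 5 to 7 of the 10 genes higher. TPM moved the median of all genes by -0.14 on the log2 scale, with 1773 genes higher and 2162 lower in place of 2939 and 2371. The title numbers are shared by 2 pairs only, whose deviations correlated at 0.07 and 0.12. With 2 controls the deviations of each mirror those of the other, so these are not separate checks of pairing. Control replicate 1 and PRC1 i2KO replicate 2, of unlike number, correlated at 0.04. Nothing in the labels says that the title numbers pair samples. The number itself is in doubt, since Control replicate 3 by its title is numbered 2 in its description. With the title number as a replicate block, 4421 genes were called (16.1% of tested genes higher, 12.1% lower), 8 of the 10 genes higher, with Epgn added (2.63, edgeR adjusted p = 0.000203), and 1 lower, Egfr (-0.35, edgeR adjusted p = 0.0435). For the other named genes 481 values kept direction and call, 32 lost the call (Ier2, Gab2, Cdkl2, Sox10, Nrg2 and Cd34, and on unfiltered TPM Adam10, Kit and Spry4), 2 gained it and 2 changed sign. Leaving out 1 library gave Mthfd2l -0.27 to 0.0345 (highest without Control replicate 1) and Odaph -1.18 to 0.048 (highest without PRC1 i2KO replicate 1) on the log2 scale; the cause was not tested. Depth limits Egf, Areg, Btc, Epgn and Ereg, at 4 to 73 reads in a control; intervals cover these samples only.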
